A study of Mus musculus with 6 samples.

Results

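The VEGF receptors and endothelial genes described here are 8 genes: Flt1, Kdr, Nrp1, Vegfa, Tek, Eng, Pecam1 and Cdh5. Their probe sets were taken from the platform annotation by gene symbol, current or older. All 8 genes were on the array, with 10 of its 12488 probe sets. RNA came from exponentially growing mouse embryonic stem cells, pluripotent cells of the early embryo. The groups were wild-type cells and 2 lines in which the genes of the linker histones H1c, H1d and H1e (now H1f2, H1f3 and H1f4) are null, with 2 arrays per line, numbered as experiments 1 and 2. Linker histones bind nucleosomes where the DNA enters and leaves. The sources used here state neither how the null lines were derived nor whether a line's arrays hold separate cultures. P-values therefore reflect the array-to-array spread, part or all of which may be technical.

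Vascular endothelial growth factor A, the product of Vegfa, is secreted and binds 2 receptor tyrosine kinases on endothelial cells. Kdr (VEGFR-2) carries most of the signal for endothelial growth and migration, while Flt1 (VEGFR-1) binds the ligand tightly, signals weakly and in mouse development acts largely as a trap that limits the supply to Kdr. Nrp1 is a co-receptor shared with class 3 semaphorins, Tek (TIE2) is the angiopoietin receptor, and Eng (endoglin) is a co-receptor for TGF-β family ligands. Pecam1 and Cdh5 (VE-cadherin) are adhesion molecules of endothelial junctions, and Pecam1 is also present on undifferentiated mouse embryonic stem cells.

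The values were MAS5 signals on a linear scale of intensity units. Median signals of the arrays ran from 34.1 to 39.5, and the brightest of 19 bacterial and yeast control probe sets, used here as the background level of an array, lay between 9.1 and 17.2. Of the targeted genes, H1f2 had signals of 70.0 and 68.2 in wild-type cells, 11.1 and 11.5 in line 1, and 13.0 and 14.4 in line 2. The H1f3 and H1f4 probe sets were at or below background on all 6 arrays and check nothing. All 12 markers of undifferentiated embryonic stem cells on the array were above the filter on low values. Of 13 markers listed for endothelial cells, 12 were on the array. Pecam1 and Eng were above background on all 6 arrays, 6 markers were above it on some arrays, and Cdh5, Tie1, Icam2 and Vwf were above it on none. The genes are therefore described as genes, and not as evidence of endothelial cells in these cultures.

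Promoter sequence was at hand for 6 of the 8 genes. Of the members tested, Flt1 had the largest difference, which did not pass the test across all probe sets. The 250 bases before a RefSeq start are shown for Flt1 and for Kdr, its closest relative here. Both lie on the minus strand of GRCm38.p6, at chr5:147726012-147726261 for Flt1 and chr5:75978456-75978705 for Kdr, and are written 5′ to 3′. Capitals mark matches on either strand to a cAMP response element (TGACGTCA), a GC box (GGGCGG) and a TATA box (TATAAA).
Flt1: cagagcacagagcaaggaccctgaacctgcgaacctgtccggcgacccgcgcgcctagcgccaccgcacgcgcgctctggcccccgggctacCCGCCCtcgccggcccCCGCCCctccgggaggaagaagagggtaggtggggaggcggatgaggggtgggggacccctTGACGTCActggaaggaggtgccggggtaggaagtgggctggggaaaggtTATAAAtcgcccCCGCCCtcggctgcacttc
Kdr: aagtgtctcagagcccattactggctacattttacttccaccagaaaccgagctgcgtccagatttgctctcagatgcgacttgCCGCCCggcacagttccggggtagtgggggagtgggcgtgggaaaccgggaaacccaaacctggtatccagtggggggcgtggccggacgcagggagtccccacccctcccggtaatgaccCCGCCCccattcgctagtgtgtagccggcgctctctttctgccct

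The Flt1 stretch held 3 GC boxes, 1 cAMP response element and 1 TATA box, and the Kdr stretch 2 GC boxes and neither of the others. Among 32851 promoter windows of the same length, 32.7% held a GC box, 1.55% the cAMP response element and 12.4% the TATA box. None of these motifs overlapped another in the printed stretches. Flt1 and Kdr had observed over expected CpG ratios of 0.744 and 0.676, against a median of 0.373 over all windows, and Eng and Tek had 0.166 and 0.126. The arrays measured transcripts only, so these letters describe the genes and no factor's binding.

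Of the ligand and its receptors, Flt1 alone was lower on every null array than on both wild-type arrays, with both of its probe sets, and no probe set of any of the 8 genes passed the test across all probe sets. By probe set 98453_at, Flt1 measured 64.5 and 65.2 intensity units in wild-type cells, 14.0 and 10.4 in line 1, and 9.3 and 40.7 in line 2. Both arrays of line 1 lay just above their background and the first of line 2 below it, whereas the second array of line 2 lay well above it and below wild type. By probe set 98452_at, Flt1 measured 39.3 and 38.6 in wild-type cells, 25.4 and 16 in line 1, and 23.0 and 26.2 in line 2. Here all 6 arrays were above background, and the groups did not overlap. Among the 7453 probe sets tested, 12% had all null arrays below both wild-type arrays.

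**Figure D1:**
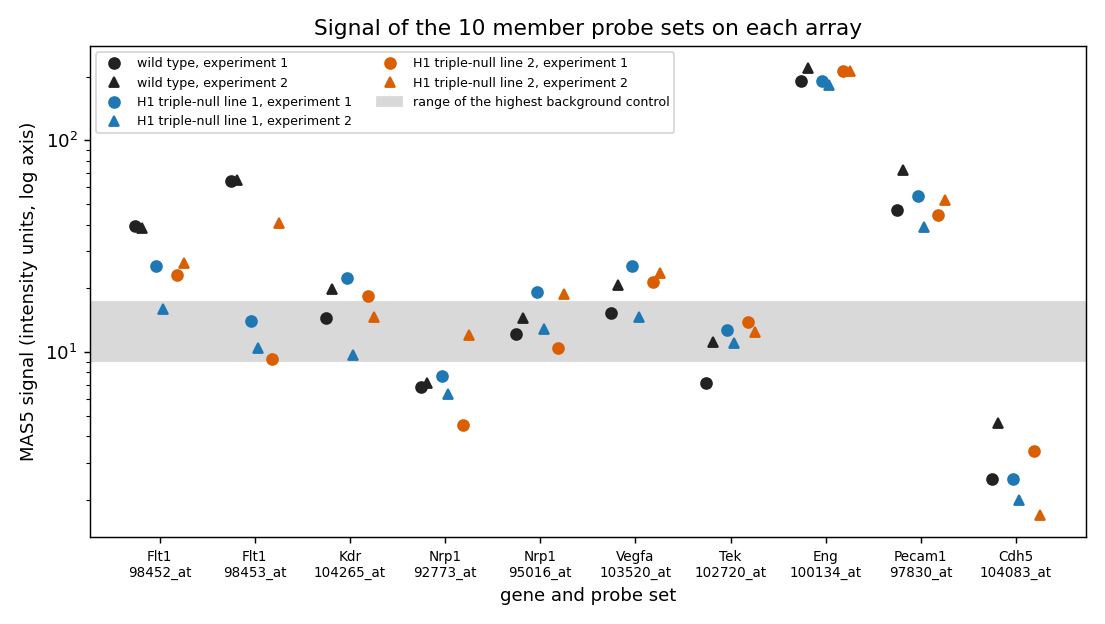
MAS5 signal of the 10 probe sets on each of the 6 arrays, on a log axis, with the line in colour and the experiment number as the marker; the grey band is the range of the highest background control, 9.1 to 17.2. Flt1 is the gene whose null arrays all lie below wild type, and the line 2 array at 40.7 stands apart from the other null arrays of 98453_at.

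In group means, Flt1 by 98453_at was at 64.9 ± 0.495 (SD, n = 2) in wild-type cells and at 18.6 ± 14.9 (SD, n = 4) in null cells, a 3.49-fold ratio of means. The difference between the average of the null lines and wild type was -1.93 ± 0.49 on the log2(signal + 2) scale (SE, limma adjusted p = 0.213, unadjusted p = 0.00744), with a 95% interval from -3.12 to -0.73. The first array of line 2 was below background here, so the ratio and the difference are approximate. With signals below an array's background raised to it, the log2 difference was -1.84 ± 0.40 (SE, limma adjusted p = 0.157). By 98452_at the means were 39.0 ± 0.495 and 22.6 ± 4.64, a 1.72-fold ratio, and the log2 difference was -0.75 ± 0.19 (SE, adjusted p = 0.195, unadjusted p = 0.00622), with an interval from -1.20 to -0.30. Neither probe set passed an adjusted p of 0.05, which 0.416% of all tested probe sets did in this comparison, while 12.7% had an unadjusted p under 0.05. By size, the difference of 98453_at was second from the most negative of all 7453. Its null mean of 18.6 lay below the filter of 20.9, so the wild-type signal admitted it to the test. The rank therefore adds no support of its own. An exact permutation test of the arrays, with the smaller one-sided p doubled, cannot give a two-sided p below 0.133 in this design. Both Flt1 probe sets gave that value.

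The gap between the arrays of line 2 made up most of the spread of 98453_at. Without the second of them, the log2 difference of Flt1 was -2.41. Line 2 then rested on 1 array, which was below background and was assumed to vary like the other lines. That fit passed the threshold, but it left out the null array nearest to wild type, so the pass adds no support. Without the first array of line 2 the difference was -1.45 and did not pass. On 98452_at, leaving out the second array of line 2 gave -0.80, which did not pass.

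Each null line was then set against the same wild-type arrays. For Flt1 by 98453_at, line 1 differed from wild type by -2.25 ± 0.57 (SE, limma adjusted p = 0.307) and line 2 by -1.61 ± 0.57 (SE, adjusted p = 0.3). With signals raised to the background floor, line 2 differed by -1.43 ± 0.47 (SE, limma adjusted p = 0.267). By 98452_at the differences were -0.88 ± 0.21 for line 1 (SE, limma adjusted p = 0.303) and -0.62 ± 0.21 for line 2 (SE, adjusted p = 0.289). Over all tested probe sets, 0.134% passed in line 1 and 0.255% in line 2. With either array of line 2 left out, the difference of line 1 against wild type by 98453_at stayed at -2.25 and passed. Leaving out an array removes the spread between the line 2 arrays from the shared estimate, so this pass adds no support. Between the null lines, Flt1 differed by -0.64 on 98453_at (limma adjusted p = 0.779, 95% interval -2.02 to 0.74) and by -0.26 on 98452_at (limma adjusted p = 0.77, interval -0.78 to 0.26). In that comparison 0.0268% of probe sets passed.

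Within experiment 1, wild type over null for Flt1 by 98453_at was 4.16 for line 1, as a ratio of signals with 2 units added, and no ratio is given for line 2, whose signal was below background. Within experiment 2 it was 5.42 for line 1 and 1.57 for line 2. By 98452_at the ratios were 1.51 and 1.65 in experiment 1 and 2.26 and 1.44 in experiment 2. These ratios rest on the same arrays as the group means and are given to show their range within an experiment.

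**Figure D2:**
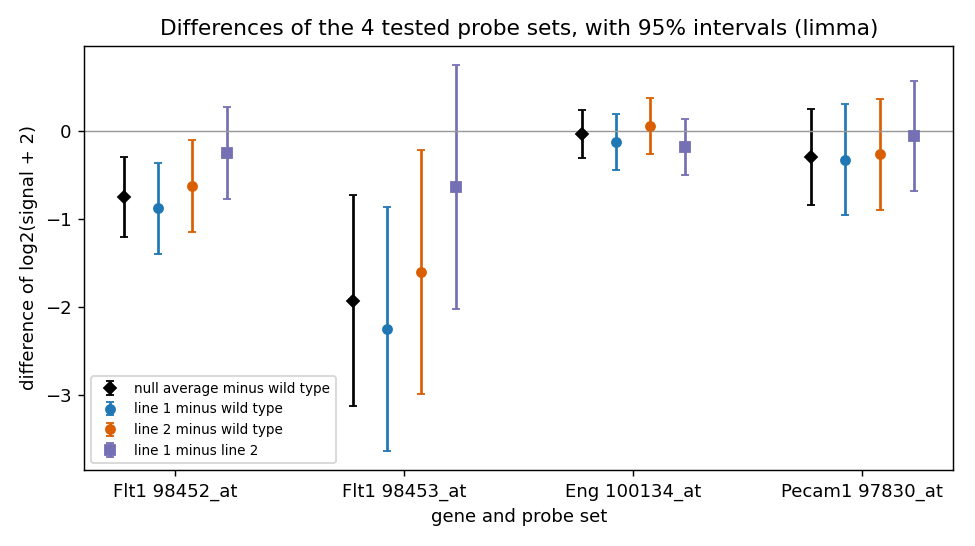
Differences of log2(signal + 2) for the 4 probe sets tested, for the null average and each null line minus wild type and for line 1 minus line 2; points are limma estimates and bars 95% intervals. The intervals of Flt1 against wild type lie below 0 before adjustment over all probe sets, while those of Eng and Pecam1 span 0.

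Kdr, the main signalling receptor, had a signal of 14.4 and 19.8 in wild-type cells, 22.4 and 9.7 in line 1, and 18.4 and 14.6 in line 2, so the groups overlapped, and 5 of the 6 arrays were above background. Its mean of 16.6 over all arrays was below the filter on low signals, set at 20.9. Nrp1 was dimmer: probe set 95016_at ranged from 10.5 to 19.3 and was above background on 4 arrays, and 92773_at ranged from 4.5 to 12 and was above background on none. For Vegfa, the ligand, the arrays gave 15.3 and 20.7 in wild-type cells, 25.5 and 14.7 in line 1, and 21.4 and 23.5 in line 2. Vegfa was above background on all 6 arrays, its groups overlapped, and its mean of 20.2 fell just short of the filter.

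Tek, the angiopoietin receptor, measured 7.1 and 11.1 in wild-type cells, at or below background, and 11 to 13.9 in null cells, where 3 arrays were above background. No fold or difference is given, since the wild-type level is only a bound. Cdh5, which holds endothelial junctions together, was between 1.7 and 4.6 and below background on all 6 arrays. For the 6 probe sets below the filter (Kdr, Vegfa, Tek, Cdh5 and both of Nrp1), a fit over all 12422 probe sets without the filter gave limma adjusted p-values between 0.657 and 0.978 for the null average. For Kdr the log2 difference was -0.10 ± 0.34 (SE, 95% interval -0.96 to 0.75), which at this signal leaves room for sizeable differences either way.

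Eng and Pecam1 were above background on all 6 arrays and passed the filter, and both overlapped between wild-type and null cells. Eng measured 190.5 and 219.1 in wild-type cells, 189.8 and 183.5 in line 1, and 213.0 and 211.7 in line 2. Line 1 lay just below both wild-type arrays and line 2 between them. The null average differed from wild type by -0.04 ± 0.11 (SE, limma adjusted p = 0.929, 95% interval -0.31 to 0.24), and line 1 from line 2 by -0.18 ± 0.13 (SE, adjusted p = 0.729). Pecam1 measured 46.7 and 72.8 in wild-type cells, 54.4 and 38.9 in line 1, and 44.2 and 52.3 in line 2. The second wild-type array was the highest, and the log2 difference of -0.30 ± 0.22 (SE, limma adjusted p = 0.622, interval -0.84 to 0.24) was 0.0102 without it.

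The rest of the pathway was read from 9 lists of genes with known roles. Of 67 genes tested in them besides the members, none passed in the null average, in either line against wild type, or in either direction, where limma called 0.416% of all probe sets. In the null average 10 of the 67 had an unadjusted p under 0.05, against 740 of all 5654 genes tested. Of the 67, 47 (70.1%) had negative log2 differences, against 51.6% of all genes tested, with a median of -0.09 against -0.01. After quantile normalization it was 65.7% against 48.7%.

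Among VEGF ligands and receptors besides the members, Vegfb, a ligand of Flt1, averaged 155 and 125 in wild-type and null arrays respectively (log2 difference -0.31 ± 0.12, SE, limma adjusted p = 0.369). Flt4, the receptor of lymphatic vessels, measured 22.4 and 25.2 (0.14, limma adjusted p = 0.84). Pgf, another ligand of Flt1, measured 16.1 and 15.9 and was below the filter, as were Vegfc and Vegfd. None of the 4 other angiopoietin pathway genes on the array passed the filter, and Angpt1, Tie1 and Ptprb were at or below background on all 6 arrays. Of 14 other endothelial surface genes, 4 were tested and 5 were at or below background everywhere. Procr, the endothelial protein C receptor, measured 30.0 and 20.2 (-0.52, limma adjusted p = 0.336), the adhesion molecule Icam1 46.8 and 36.6 (-0.33, limma adjusted p = 0.45), and caveolin 1 (Cav1) 92.7 and 82.4 (-0.18, limma adjusted p = 0.836).

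Among partners of endoglin, 11 were tested, 9 with negative differences and a median of -0.03. The receptor Acvrl1, which works with Eng, had a log2 difference of 0.18 (limma adjusted p = 0.677), and the ligand Tgfb2 one of -0.27 (limma adjusted p = 0.533). The inhibitory Smad6 was at -0.22 (limma adjusted p = 0.583) and Smad1, a carrier of BMP signals, at -0.25 (limma adjusted p = 0.637). Of 9 endothelial and haemangioblast transcription factors, 5 had negative differences, with a median of -0.10. Ets2 measured 58.1 and 45.9 (-0.33, limma adjusted p = 0.316), Lmo2, required for blood and vessel formation, 53.6 and 43.1 (-0.31, limma adjusted p = 0.353), and Gata2 59.2 and 48.8 (-0.30, limma adjusted p = 0.508). Of 6 Notch and ephrin genes 4 had positive differences (median 0.04), among them Rbpj, the DNA-binding partner of Notch, at 0.34 (limma adjusted p = 0.448). The Notch ligand Jag2 was at 0.28 (limma adjusted p = 0.748) and ephrin B2 (Efnb2) at -0.21 (limma adjusted p = 0.466).

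Of 18 genes of signal transduction from VEGF receptors, 13 had negative differences, with a median of -0.08. The kinase Src measured 54.9 and 34.6 (-0.64, limma adjusted p = 0.246), and paxillin (Pxn), an adaptor of focal adhesions, 96.0 and 65.6 (-0.53, limma adjusted p = 0.212). Ppp3ca, a catalytic subunit of calcineurin, measured 105 and 78.3 (-0.42, limma adjusted p = 0.369). Of 14 genes of the hypoxia response, which drives Vegfa transcription, 11 had negative differences (median -0.12). The glucose transporter Slc2a1 had the smallest p of that list and measured 1046 and 743 (-0.49, limma adjusted p = 0.19). Ddit4 measured 360 and 288 (-0.33, limma adjusted p = 0.3), whereas Pdk1, a kinase that restrains pyruvate oxidation, measured 228 and 313 (0.45, limma adjusted p = 0.214). The 3 semaphorin and plexin genes tested were Sema3e (-0.57, limma adjusted p = 0.431), Plxna3 (-0.10) and Plxna1 (-0.04).

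**Figure D3:**
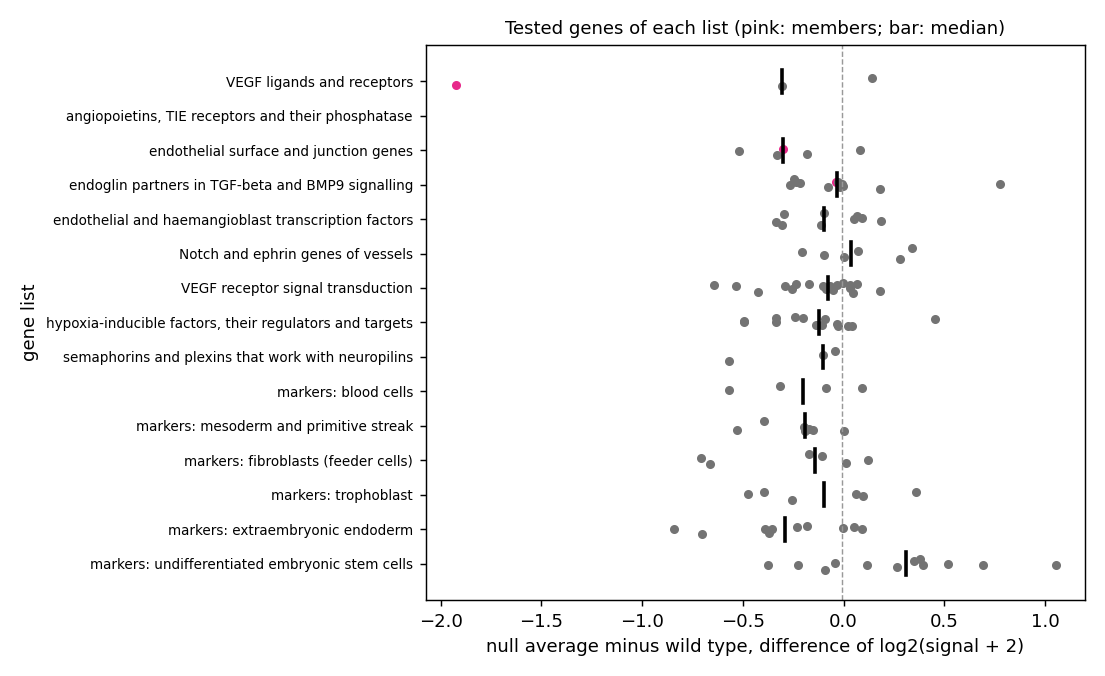
Log2 difference between the null average and wild type for each tested gene of each list, by its brightest probe set; pink points are members, black bars list medians and the dashed line the median of all tested genes. By its brightest probe set Flt1, at -1.93, lies farther from 0 than every other gene shown. This standing depends on the probe set: by 98452_at Flt1 was at -0.75, nearer to 0 than Tgfb1 at 0.78. No angiopoietin pathway gene was tested.

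Summed signals of the markers of 3 other cell types were lower on every null array than on both wild-type arrays. The sum of the undifferentiated embryonic stem cell markers was higher. Of single probe sets tested, 12% had all null arrays below both wild-type arrays. The mesoderm sums nearly touched, at 358.8 on the lowest wild-type array and 357.4 on the highest null array. In these bulk samples, fewer cells of a type and less RNA per cell cannot be told apart. The summed signal of 14 extraembryonic endoderm markers was 1697 and 1895 in wild-type cells, 1334 and 1292 in line 1, and 1250.5 and 1246 in line 2. Of the 10 tested, 8 had negative log2 differences, with a median of -0.29. Col4a2, a basement membrane collagen, was at -0.84 and just passed (limma adjusted p = 0.0433), and Col4a1 was at -0.70 and Sparc at -0.39 without passing. Whether Col4a2 passed under the alternative settings was not examined. Most of that endoderm difference lay in these 3 genes, with wild-type and null means of 349 and 194, 376 and 232, and 602 and 458. Of the other endoderm markers tested, Dab2 was at -0.37, Lamb1 at -0.36, Gata4 at -0.23 and Lama1 at -0.18, without passing. Sox17 and Sox7 were at 0.05 and 0.09, and Afp at -0.0018. Foxa2 and Hnf4a were at or below background on all arrays. For 12 markers of fibroblasts, the cells used as feeders, the sum was 1186 and 1134.5 in wild-type cells, 894 and 886.5 in line 1, and 990 and 943 in line 2, where none of 6 tested passed in limma (2 with an unadjusted p under 0.05) and the median was -0.14. Most of that fibroblast difference lay in Acta2, a smooth muscle actin, with means of 560.65 and 345 (-0.71, limma adjusted p = 0.121), while Timp3 was at -0.66, S100a4 at -0.17, and the collagen genes Col1a1 and Col1a2 at 0.01 and 0.12. For 10 mesoderm markers it was 359 and 423 in wild-type cells, 357 and 324 in line 1, and 317 and 327.5 in line 2, with none of 7 passing in limma (2 with an unadjusted p under 0.05), a median of -0.19 (Twist1 -0.53, Hand1 -0.39, Eomes -0.19), and Mesp1, Gsc and Foxf1 at or below background on all arrays. Sums of 10 trophoblast markers (952 and 1055 in wild-type, 828.5 to 979 in null cells) and of 10 blood cell markers (189 and 221, and 152 to 226) overlapped, and Ptprc, the common leukocyte marker, was at or below background on all arrays. Of their tested genes, Peg10 was at -0.48 and Plet1 at 0.36 among trophoblast markers, and Gata1 at -0.57, Klf1 at -0.31 and Hba-a1 at -0.09 among blood cell markers. The 12 embryonic stem cell markers summed to 5958 and 6099.5 in wild-type cells, 7063 and 6465.5 in line 1, and 6474 and 6383 in line 2. Their median log2 difference was 0.31, with 8 positive and 4 negative. Fbxo15 was at 1.05 ± 0.13 (SE) and just passed (limma adjusted p = 0.0465), which was likewise not examined under the alternative settings. Dppa3 and Tcl1 were at 0.69 and 0.52 without passing (limma adjusted p = 0.187 and 0.169). The negative ones were Nanog (-0.09), Sox2 (-0.04), Klf4 (-0.23) and Tdgf1 (-0.38), and Pou5f1 was at 0.12. From the first to the second array of line 2, the endoderm, fibroblast, blood and embryonic stem cell sums were lower, and the mesoderm sum (317 and 327.5) and trophoblast sum (828.5 and 841) were higher. The part of these cells in the Flt1 difference was not tested.

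The probe sets most like Flt1 98453_at over the 6 arrays, chosen by the highest Pearson r of log2 values among tested genes, were those of Dok2, an adaptor of receptor tyrosine kinase signalling (r = 0.993), Ppl, which encodes periplakin (r = 0.987), and Macf1, a linker of actin and microtubules (r = 0.979). Dok2 measured 125.6 and 127.0 in wild-type cells, 91.6 and 87.4 in line 1, and 84.6 and 108.6 in line 2, and was chosen for its likeness on these same arrays. Among the 6725 tested probe sets with a single gene, 20 had an r above 0.95 with 98453_at and 37 with 98452_at. Such likeness over 6 arrays was therefore not particular to the genes named. The nearest to 98452_at were Ankrd46, Ptpn9 and Dnajc17 (r between 0.986 and 0.987). The 2 Flt1 probe sets correlated with each other at r = 0.873. For Eng the nearest were Zfp821, Uck2 and Ddx54, and for Pecam1 they were Dtl, E330034G19Rik and Rin2.

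Genes next to Flt1 on its chromosome, 3 with a probe set on either side, were read from the same fit. Flt3, a receptor kinase of blood progenitors, averaged 84.9 and 85.3 in wild-type and null cells, a log2 difference of 0.00 (limma adjusted p = 0.998). On the other side, Pomp had a log2 difference of -0.14 (limma adjusted p = 0.791) and Ubl3 one of 0.26 (limma adjusted p = 0.391). Pdx1, Cdx2 and Slc7a1 were at or below background on all 6 arrays. Around Kdr, the receptor kinase genes Pdgfra and Kit had log2 differences of -0.17 and 0.33 (limma adjusted p = 0.822 and 0.368).

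**Figure D4:**
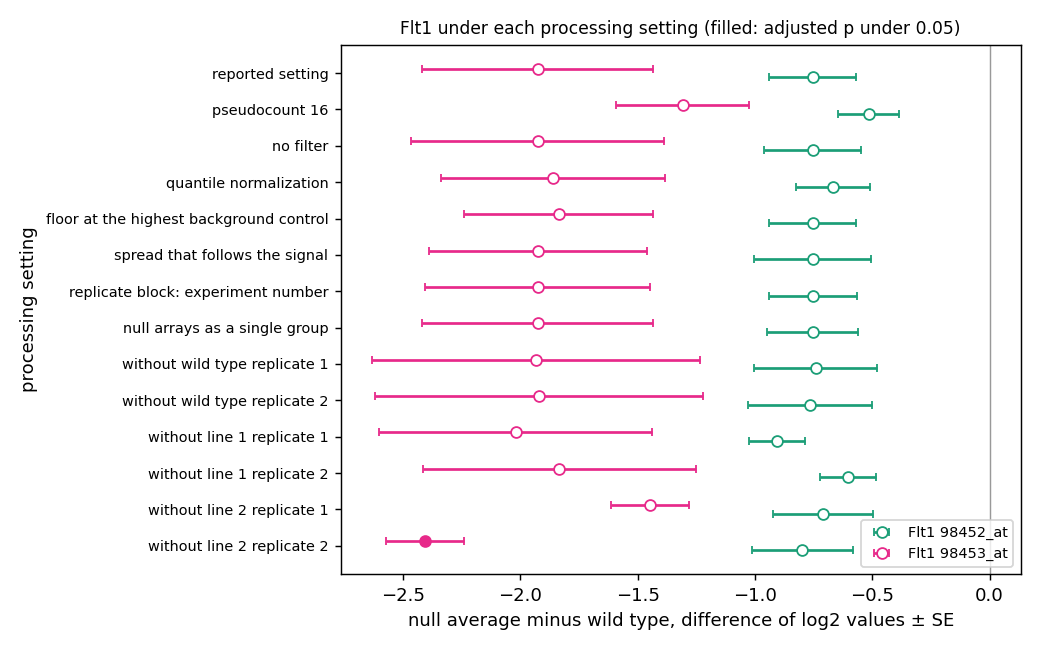
Log2 difference of Flt1 between the null average and wild type under the reported and each alternative setting, for both probe sets, with SE bars; filled points passed an adjusted p of 0.05. Every value lies below 0, and the single filled point is 98453_at without the second array of line 2, at -2.41. In that fit line 2 rests on its first array alone, which was below background.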

How the data were processed

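The deposited values are intensities on a linear scale, 1 per probe set and array, made by the authors with MAS5 per the submitters' processing notes (version not given in the sources used here). Trimmed means of 99.5 to 99.6 per array show a common scaling, which was kept. Gene names come from the platform annotation, updated through current mouse symbols (10817 of 10833 single-gene probe sets matched). The 66 control probe sets were left out. Signals were tested as log2(signal + 2), with the pseudocount at the 10th percentile, if their mean reached the 40th percentile (20.9), leaving 7453 probe sets. The 3 lines entered a single limma fit (version 3.58.1, R 4.3.3, 3 residual and 3.17 prior degrees of freedom), with Benjamini-Hochberg adjustment over all tested probe sets. The procedure was tested on simulated data. For pathway genes the brightest probe set stands for the gene, and those named are those called and the 3 with the smallest p of each list. Genes needed for context were added after their values were seen (Pgf, Acvrl1, Tgfb1, Col1a1, Col1a2, Sox17, Sox7, Afp, Dab2, Lamb1, Gata4, Lama1, Nanog, Sox2, Klf4, Tdgf1, Pou5f1, the flanking genes). Members and lists were chosen with earlier results of these data known. Promoters are RefSeq sequences of GRCm38.p6. Array number limits the precision.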

Additional observations from a re-analysis of the deposited data

Results flagged for a closer look

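On the 4 null arrays, Flt1 by probe set 98453_at had 1 value far from the others: 40.7 on the second array of line 2, against 9.3, 10.4 and 14.0. Its gap to the nearest value was 0.85 of the whole range, above Dixon's 95% critical value for 4 samples. On the log2 scale the gap was 0.738 of the range, below that value. Of the 10 probe sets examined this way 1 was singled out, and chance gives about 1 in 20. Probe set 98452_at of the same gene measured 26.2 on that array, the highest of its 4 null values, with a gap of 0.686 of the range on the signal scale, at the opposite end.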

How the results depend on the processing

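Neither Flt1 probe set changed direction against wild type under any alternative that tested it (the filter at the 60th percentile did not). For the null average, 98453_at ranged from -2.41 to -1.45 and 98452_at from -0.91 to -0.60 with 1 array left out at a time, and with a pseudocount of 16 they were -1.31 and -0.52. In the same leave-one-out fits, line 1 minus wild type ranged from -2.43 to -2.06 and line 2 from -2.56 to -0.65 for 98453_at. Line 1 minus line 2 ranged from -1.60 to 0.32 for 98453_at and from -0.561 to 0.0454 for 98452_at. Some differences whose reported 95% interval spanned 0 changed sign when 1 array was left out. Among them was line 1 minus line 2 by 98453_at, reported at -0.64. Eng ranged from -0.137 to 0.0629 in the null average and from -0.0447 to 0.155 in line 2, and Pecam1 from -0.609 to 0.0102 in the null average, from -0.579 to 0.0405 in line 2 and from -0.29 to 0.17 between the null lines; the cause was not tested. In all, 189 of 200 member values kept direction and side of the threshold, 8 changed sign and 3 passed. Those 3 were of Flt1 by 98453_at, each in a fit with an array of line 2 left out.

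The number of probe sets called in the null average was 31 as reported, 54 with a pseudocount of 16, 8 without the filter, 64 with the filter at the 60th percentile, 15 with a background floor and 101 with a spread that follows the signal. For line 1 it was 10, and 5 without the filter, 17 with the stricter filter and 42 with the spread that follows the signal. For line 2 it was 19, and 31, 5, 59, 6 and 92 in the order of the null average. Between the null lines it was 2, 0 without the filter (563 with an unadjusted p under 0.05 as reported) and 1 with a pseudocount of 16, the stricter filter, quantile normalization or the floor. Leaving out 1 array gave 7 to 13 calls in the null average, 4 to 9 in line 1, 0 to 10 in line 2 and 0 between the null lines, and the cause was not tested. With experiment number as a replicate block, calls were 14 in the null average and 0 between the null lines, and both Flt1 probe sets had a limma adjusted p of 0.246. Deviations of arrays sharing a number correlated with r between 0.053 and 0.095 between lines, so the numbers were not taken to pair the arrays. Signal near background limits what can be said of Kdr, Nrp1, Tek and Cdh5. It also leaves the size of the Flt1 difference by its brightest probe set approximate. There, both arrays of line 1 lay just above background and the first array of line 2 below it.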
